A study of Mus musculus with 2 samples.

Results

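The aminoacyl-tRNA synthetase genes were examined in the 2 RNA-seq libraries of a comparison between 46C mouse embryonic stem cells that received a Gbx2 expression vector and 46C cells that received the empty vector. The members were a list of 35 gene symbols, 20 for cytosolic and 15 for mitochondrial enzymes, where a symbol ending in 2 was taken as mitochondrial. All 35 have a row in the deposited table of 14500 symbols. The table holds 1 library per vector, so no value has a replicate error and no difference between the vectors was tested. Both cultures were of the 46C line, grown on gelatin in serum medium with LIF at passages 21 to 24. By its title, PB is the library of the empty vector and PB-Gbx2 that of the Gbx2 vector. The source names in the labels state the opposite assignment. Groups follow the titles, which match the column names of the table apart from a suffix P3 that the labels do not explain, and every direction below would turn around under the source names. Whether the transfected cells were a pool or a clone is not given in the sources used here.

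An aminoacyl-tRNA synthetase joins an amino acid to the tRNA that carries its anticodon, the step that fixes the genetic code before the ribosome is reached. Cytosolic enzymes charge tRNAs for most cellular proteins, and a separate nuclear-encoded set, imported into mitochondria, charges the tRNAs that the mitochondrial genome supplies. The transcription factor ATF4, translated when eIF2alpha is phosphorylated under amino acid shortage or endoplasmic reticulum stress, is known to raise transcription of many cytosolic synthetases along with amino acid transporters and synthetic enzymes. A few genes do not keep to the division by symbol: Gars and Kars each encode both a cytosolic and a mitochondrial form, and mitochondria make glutaminyl-tRNA in a different way, through Ears2 and an amidotransferase.

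Gbx2 itself stood at a normalized level of 345 in PB and 1178 in PB-Gbx2, 3.41-fold higher in the library titled for it. The source names would instead assign the Gbx2 vector to the library with the lower Gbx2 level. The sorted levels of the libraries are the same in all 14501 rows, with a total of 16528899 each, so an overall difference between them cannot be seen and read depth is unknown. The 6 embryonic stem cell markers listed had levels of 7508 or more in each library, and PB-Gbx2 had the higher level of all 6 (median log2 ratio 0.38). Nanog stood at 8918 in PB and 19872 in PB-Gbx2, 2.23-fold higher, and Zfp42 at 8320 and 16671. The PB-Gbx2 levels of both lie in the range from 15000 up, where neighbouring deposited values can lie up to 1.56-fold apart. Of the 7 fibroblast markers, 6 had a row. In PB-Gbx2 4 of them were lower and 2 higher (median log2 ratio -0.31). The lower ones were Col1a1 (132 in PB and 36 in PB-Gbx2), Thy1 (866 and 492), Pdgfrb (626 and 486) and Vim (1698 and 1420). Pdgfrb and Vim are named here after their values were seen. The higher ones were Col1a2 (9 and 18) and Fn1 (26866 and 70328), the latter also in that coarse range from 15000 up. The part of either marker set in the synthetase values was not tested. Fewer cells of a type and less RNA per cell cannot be told apart in bulk RNA.

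Most cytosolic synthetase genes had a lower level in the PB-Gbx2 library, while the median ratio of the mitochondrial ones was near 0. Of the 20 cytosolic genes, 17 had a lower level in PB-Gbx2 and 3 a higher one, whereas 48.9% of all symbols and 49.2% of the 4253 symbols at 1000 or more in at least 1 library were lower. Their median log2 ratio of PB-Gbx2 over PB, computed on the level plus 1, was -0.38, against 0.00 over all symbols. The summed level of the 20 genes was 112769 in PB and 85341 in PB-Gbx2, 1.32-fold lower. Of the 15 mitochondrial genes, 11 were higher, 3 lower and 1 equal in PB-Gbx2, beside 7136 of all 14500 symbols that were higher. The median of the mitochondrial log2 ratios was 0.07, and 6 of the 15 genes differed by less than 1.1-fold. The summed level of the 15 genes was 12972 in PB and 12140 in PB-Gbx2, 1.07-fold lower, although most of the genes were higher. The medians of the cytosolic and mitochondrial genes differed by -0.45 on the log2 scale. The ranges of the groups overlapped, from -0.87 to 0.24 for the cytosolic genes and from -0.61 to 0.77 for the mitochondrial genes.

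**Figure D1:**
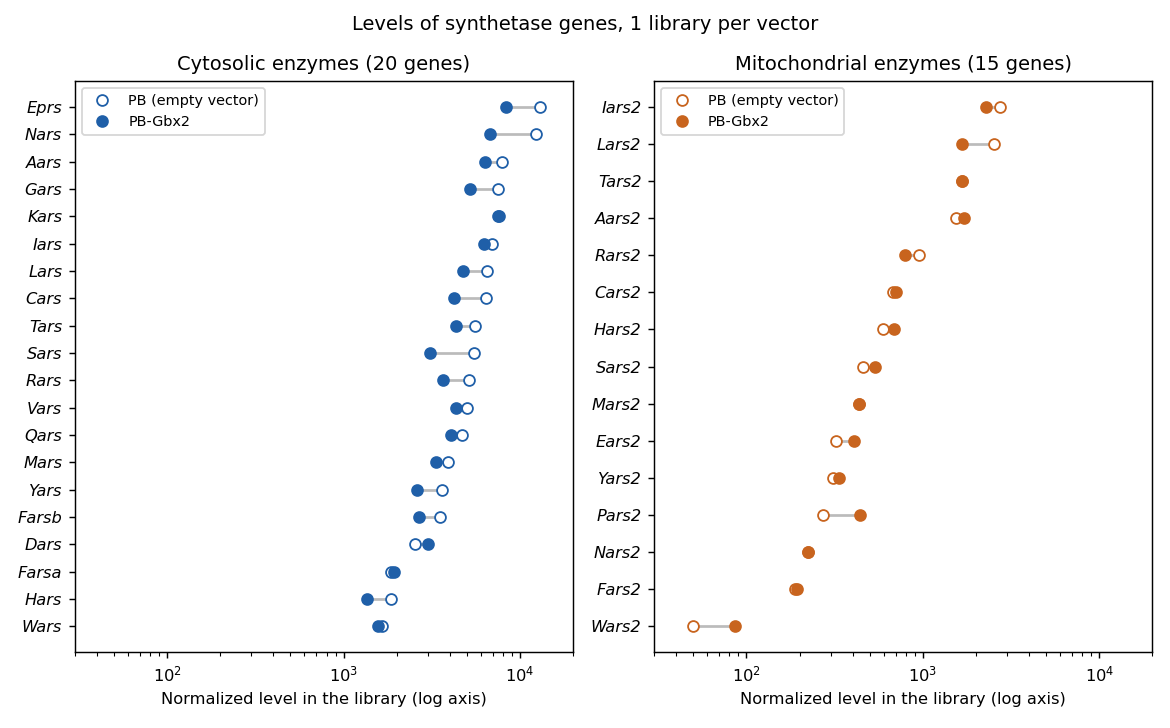
Normalized level (horizontal log axis) of each synthetase gene in the PB library (open circles) and the PB-Gbx2 library (filled circles), cytosolic on the left and mitochondrial on the right, with a grey line joining the pair. In 17 of the 20 cytosolic genes the filled circle lies to the left, and in 11 of the 15 mitochondrial genes it lies to the right.

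The differences were moderate in size. No member reached a 2-fold difference in either direction, while 5.26% of all symbols were at least 2-fold lower and 5.14% at least 2-fold higher in PB-Gbx2. Such differences were rarer among the 4253 symbols that reached 1000, where 38 were at least 2-fold lower and 46 at least 2-fold higher. At 1.5-fold, 4 of the 20 cytosolic genes were lower and 0 higher, beside 12.2% and 11.6% of all symbols. Ratios scatter less among abundant genes: among symbols that reached 1000, to which all 20 cytosolic genes belong, 4.37% were at least 1.5-fold lower and 4.26% higher. Of the 15 mitochondrial genes, 1 was at least 1.5-fold lower and 2 at least 1.5-fold higher. When symbols were divided by mean level into 20 bins of equal size, 11 of the 20 cytosolic genes lay below the 10th percentile of the log2 ratios in their bin and 0 above the 90th, with a median percentile of 8.41. Among the mitochondrial genes 1 lay below, 1 above and 13 between these limits, with a median percentile of 56.8.

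**Figure D2:**
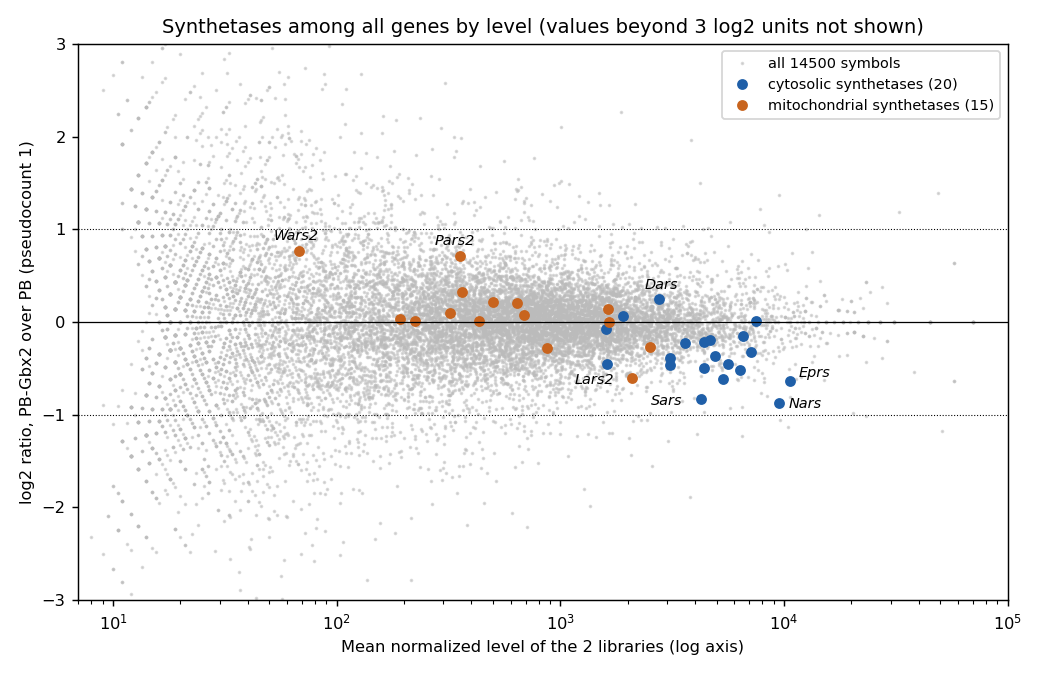
Log2 ratio of PB-Gbx2 over PB (vertical axis) against the mean normalized level (horizontal log axis) for all 14500 symbols in grey, cytosolic synthetases in blue and mitochondrial ones in orange, with dotted lines at 2-fold. The blue points lie mostly below 0 at levels where the grey points are narrow, and the orange points lie at lower levels around 0. Symbols with values beyond the limits of the axes are not drawn.

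The largest differences belonged to Nars, Sars, Eprs and Cars. Nars, which charges asparagine tRNAs, stood at 12299 in PB and 6736 in PB-Gbx2, 1.83-fold lower and at percentile 1.31 of its level bin. Sars, the seryl enzyme, which also charges the selenocysteine tRNA with serine, stood at 5472 and 3072, 1.78-fold lower and at percentile 1.45. Eprs, a bifunctional chain that carries the glutamyl and the prolyl enzyme, stood at 12900 and 8320, 1.55-fold lower. Cars, for cysteine, stood at 6441 and 4206, 1.53-fold lower. Eprs lay at percentile 2.69 and Cars at 3.38 of their bins. In the authors' deposited table these 4 are the members with an unadjusted p under 0.05. There Nars has a p of 0.00433 and an adjusted p of 0.402, Sars an adjusted p of 0.606, and the other 33 members an adjusted p of 1. Those p-values come from 1 library per vector.

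The cytosolic enzymes that are widely reported among ATF4-induced genes were compared with the rest. This list of 12 (Aars, Cars, Eprs, Gars, Iars, Lars, Mars, Nars, Sars, Tars, Wars and Yars) comes from general knowledge of the pathway. It was drawn up with earlier results of these data known, so it is not independent of them. All 12 were lower in PB-Gbx2. Their log2 ratios had a median of -0.46 and a range from -0.87 to -0.08, and 4 of them were at least 1.5-fold lower. Of all symbols, 48.9% were lower and 12.2% at least 1.5-fold lower. Among symbols that reached 1000, to which all 12 belong, these shares were 49.2% and 4.37%. Beside the leading 4, Gars, for glycine, stood at 7502 in PB and 5230 in PB-Gbx2, 1.43-fold lower. Yars, the tyrosyl enzyme, stood at 3596 and 2612, 1.38-fold lower. Lars, the leucyl enzyme, which is also known as a leucine sensor upstream of mTORC1, stood at 6510 and 4759, 1.37-fold lower. These 3 lay between percentiles 4.21 and 7.1 of their bins. The remaining 5 differed less. Tars, for threonine, stood at 5549 and 4306, 1.29-fold lower. Aars, for alanine, stood at 7948 and 6340, 1.25-fold lower. Mars, which charges both initiator and elongator methionine tRNAs, stood at 3907 and 3342, and Iars, for isoleucine, at 6896 and 6229, 1.17-fold and 1.11-fold lower. The smallest difference was that of Wars, the tryptophanyl enzyme, whose transcription is known to respond to interferon, at 1652 and 1564.

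The other 8 cytosolic genes had a median log2 ratio of -0.20, 5 of them lower and 3 higher in PB-Gbx2, and none reached 1.5-fold. These 8 also belong to the symbols that reached 1000, of which 49.2% were lower and 4.37% at least 1.5-fold lower. Rars, the arginyl enzyme, stood at 5166 in PB and 3660 in PB-Gbx2, 1.41-fold lower. Hars, for histidine, stood at 1860 and 1363, 1.36-fold lower. The subunits of phenylalanyl-tRNA synthetase, which work as a tetramer of alpha and beta chains, differed from each other in direction: Farsb, the beta chain, was at 3503 and 2676, 1.31-fold lower, and Farsa, the alpha chain, at 1862 and 1942. Qars, for glutamine, stood at 4706 and 4059, and Vars, for valine, at 4984 and 4359, 1.16-fold and 1.14-fold lower. Kars, the lysyl enzyme of both compartments, stood at 7493 and 7577. Dars, for aspartate, was the cytosolic gene with the highest ratio, at 2523 and 2989, 1.18-fold higher. The medians of the 12 and the 8 genes differed by -0.25 on the log2 scale. The ranges overlapped, since Rars, Hars and Farsb had lower ratios than several of the 12.

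A promoter element known to bind ATF4 with a C/EBP partner was searched for in RefSeq promoter windows of build GRCm38.p6, since all 12 genes of the first list were lower. The windows hold 250 bases before and 50 bases from a gene's annotated start. The letters searched were TGATGNAA on both strands, the core of the C/EBP-ATF response element. A window was found for 13 of the 20 cytosolic and 13 of the 15 mitochondrial genes. The letters occur in 3.97% of all 32851 windows. They occur in the windows of 5 cytosolic genes, Aars, Gars, Iars, Tars and Yars, and of 0 mitochondrial genes. The 30 bases around a match in each are shown because these 5 genes share the letters and the 21 other members with a window lack them. The search, and this motif among the 8 searched, were chosen after the values and the matches were seen. The split between the groups is therefore not independent of that choice. They are printed 5′ to 3′ on the strand of the gene, with the match in capitals.
Aars, chr8:111033840-111033869, plus strand, match beginning at base 10 from the start on: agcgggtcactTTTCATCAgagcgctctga
Gars, chr6:55037960-55037989, plus strand, match beginning 30 bases before the start: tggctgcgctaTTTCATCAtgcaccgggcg
Iars, chr13:49682126-49682155, plus strand, match beginning at base 8 from the start on: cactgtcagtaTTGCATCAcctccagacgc
Tars, chr15:11399655-11399684, minus strand, match beginning 15 bases before the start: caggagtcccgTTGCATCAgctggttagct
Yars, chr4:129189895-129189924, plus strand, match beginning at base 4 from the start on: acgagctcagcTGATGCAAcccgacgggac

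The 5 genes with a match had log2 ratios from -0.52 (Gars) to -0.15 (Iars) and so did not include the 4 lowest. Sars, Eprs, Mars, Qars, Kars, Dars, Farsa and Farsb had a window without the letters, which says nothing of sequence outside it. Not matched to a window were Nars, Cars, Lars, Wars, Hars, Rars, Vars, Hars2 and Pars2. Among all symbols of the table with a window, 285 hold the letters, and their median log2 ratio was -0.04, against 0.00 for the 10404 symbols with a window. Of these 285 symbols, 53 (18.6%) were at least 1.5-fold lower and 30 (10.5%) at least 1.5-fold higher in PB-Gbx2, beside 1141 and 1086 of the 10404. In all, 8 motifs were searched in these windows, each on both strands. Narrower or overlapping forms of the first motif were TGATGCAA (in 0.895% of all windows), TGATGNAAN (3.95%), TGATGNAAT (0.965%) and ATTGNATCA (0.53%). They occur in the windows of 4, 5, 3 and 2 cytosolic genes, in that order, and in no mitochondrial window. Every match of TGATGCAA, TGATGNAAN or TGATGNAAT is also a match of the first motif. Their absence from the mitochondrial windows was thus fixed in advance and adds nothing. The letters CCAAT, of the NF-Y box, occur in 37.4% of all windows and in those of 7 cytosolic and 6 mitochondrial genes. The E-box CACGTG occurs in 7.15% of all windows, and in 4 cytosolic and 1 mitochondrial one. The letters GGAAGTG, bound by ETS factors, occur in 11.0% of all windows, and in 1 cytosolic and 3 mitochondrial ones. A match is a description of letters and not evidence of binding.

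The cytosolic enzymes fall into 2 structural classes by the fold of the catalytic domain. All 10 genes of class I were lower in PB-Gbx2 (median log2 ratio -0.34), and of the 10 of class II, 7 were lower, with a median of -0.38. Of all symbols 48.9% were lower, and of those that reached 1000, as all these genes did, 49.2%. The class medians lay close together, and that of class II was the lower one. Farsa, Kars and Dars, the 3 higher genes, are all of class II. Eprs is counted under class I for its glutamyl part, and its prolyl part is of class II. A further grouping is the multisynthetase complex, in which 8 enzymes are held together by the scaffold proteins Aimp1, Aimp2 and Eef1e1. Of the 8 (Eprs, Iars, Lars, Mars, Qars, Rars, Kars and Dars), 6 were lower and 2 higher, with a median of -0.22. Of the 12 enzymes outside the complex, 11 were lower, with a median of -0.42. Both counts stand beside the same 49.2% of symbols that reached 1000. Among the scaffold genes, Aimp1 stood at 1430 in PB and 1070 in PB-Gbx2, 1.34-fold lower. Aimp2 stood at 381 and 394, and Eef1e1 at 1404 and 1392. The subunits of the complex thus did not share a ratio, from -0.63 for Eprs to 0.24 for Dars.

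Of the 15 mitochondrial genes, 6 differed by less than 1.1-fold between the libraries. The lowest ratio was that of Lars2, for leucine, at 2532 in PB and 1662 in PB-Gbx2, 1.52-fold lower and at percentile 2.55 of its level bin. Iars2, for isoleucine, stood at 2748 and 2274, and Rars2, for arginine, at 954 and 788, each 1.21-fold lower and above the 10th percentile of its bin. Tars2, for threonine, had the same level of 1659 in both. Mars2 (432 and 434), Nars2 (222 and 224), Fars2 (189 and 194), Cars2 (674 and 708) and Yars2 (310 and 333) were within 1.1-fold, where the levels in parentheses are those in PB and PB-Gbx2. Aars2, for alanine, stood at 1550 and 1706, and Hars2, for histidine, at 598 and 688. Sars2, for serine, stood at 460 and 536, and Ears2, for glutamate, at 324 and 406, 1.17-fold and 1.25-fold higher. The highest ratios were those of Pars2, for proline, at 270 and 442, 1.64-fold higher and at percentile 94.8, and Wars2, for tryptophan, at 50 and 86, 1.72-fold higher and at percentile 83.9. Wars2 had the lowest level of all members, where ratios of other genes scatter widely, with a 10th percentile of -1.03 and a 90th of 1.07 in its bin.

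Vars2, the mitochondrial valyl enzyme, is outside the member list and stood at 1314 in PB and 1138 in PB-Gbx2, 1.15-fold lower. Tarsl2, a cytosolic threonyl paralog, stood at 361 and 222, 1.63-fold lower. The amidotransferase that completes mitochondrial glutaminyl-tRNA was nearly equal in its 3 subunits, with Qrsl1 at 404 and 405, Gatb at 285 and 280, and Gatc at 361 and 345.

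Each mitochondrial gene was set beside the cytosolic gene for the same amino acid. The 15 genes gave 16 pairs, since Fars2 has both Farsa and Farsb as counterparts. Eprs, with its 2 activities, stands in the pairs of Ears2 and Pars2, so the pairs are not independent. In 13 of the 16 pairs the cytosolic ratio was the lower one, and the median difference was -0.51 on the log2 scale. The difference was -1.34 for Eprs and Pars2, -1.05 for Sars and Sars2, -0.96 for Eprs and Ears2, and -0.88 for Nars and Nars2. The 3 pairs in which the cytosolic ratio was the higher one were those of Farsa and Fars2 (0.02), Iars and Iars2 (0.13) and Lars and Lars2 (0.16). Leucine was the amino acid for which both genes lay below the 10th percentile of their bins, 1.37-fold lower in Lars and 1.52-fold lower in Lars2.

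**Figure D3:**
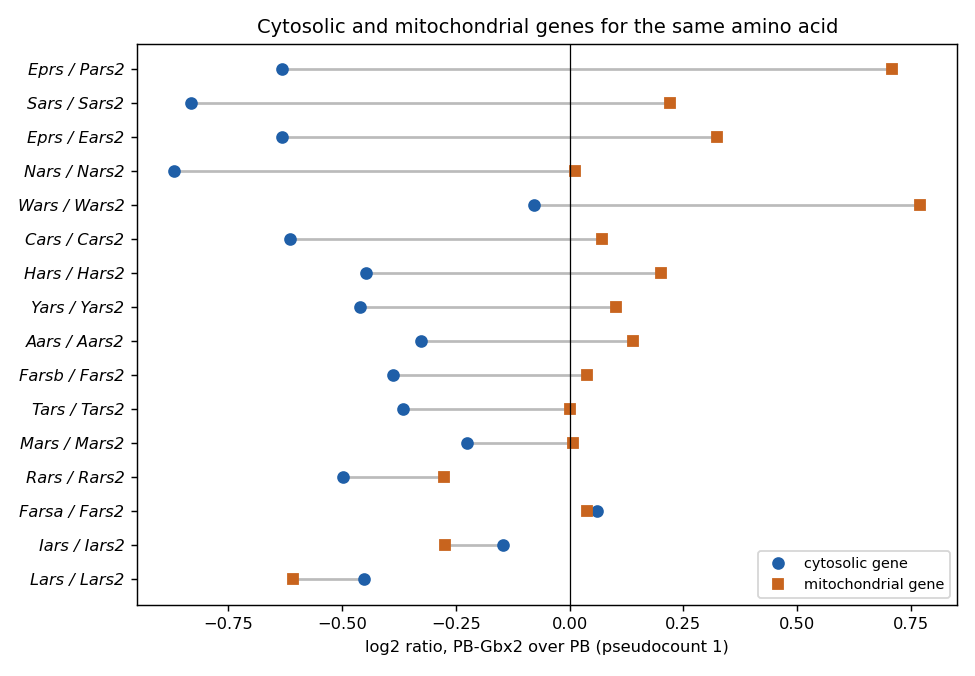
Log2 ratio of PB-Gbx2 over PB (horizontal axis) of the cytosolic gene (blue circle) and the mitochondrial gene (orange square) for the same amino acid, 1 pair per line, ordered by their difference. In 13 of the 16 pairs the blue circle lies to the left of the orange square.

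The groups also differed in abundance. Levels were divided by the length of the longest protein-coding transcript of each symbol in GENCODE M21 to compare genes with each other. On this scale the level per kilobase in PB had a median of 1545 over the cytosolic genes and 179 over the mitochondrial genes. In PB, 19 of the 20 cytosolic genes had a higher level per kilobase than every mitochondrial gene, and Wars (584) alone lay below the mitochondrial maximum, that of Lars2 (650). The order at the top changed between the libraries: Nars had the highest level per kilobase in PB, 4480, ahead of Kars at 3420 and Gars at 3150, whereas in PB-Gbx2 Kars led at 3460, ahead of Nars at 2450 and Gars at 2200. No spread over samples is known for these levels, so neighbours in the order cannot be told apart. The levels per kilobase of the mitochondrial genes ran from 11.3 for Wars2 to 650 for Lars2 in PB, and from 19.5 for Wars2 to 514 for Tars2 in PB-Gbx2.

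Exons of 8 members overlap exons of another listed gene on the opposite strand in GENCODE M21, and the TruSeq RNA kit named in the labels does not mark strand, so shared reads cannot be assigned with certainty. The longest overlap is that of Iars2 with Rab3gap2, 2034 bases. Rab3gap2 stood at 1310 in PB and 966 in PB-Gbx2. Mars overlaps Ddit3 over 68 bases, and Hars overlaps Hars2 over 195. How many reads these stretches share was not measured.

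Genes that work upstream and beside the synthetases were examined in lists drawn up from general knowledge, with earlier results of these data known. Of 20 ATF4-linked genes of amino acid transport and synthesis, 16 were lower and 4 higher in PB-Gbx2. The median of their log2 ratios was -0.59, beside -0.38 for the 20 cytosolic synthetases. Of these, 10 were at least 1.5-fold lower, 4 of them at least 2-fold, and 1 at least 1.5-fold higher, beside 12.2%, 5.26% and 11.6% of all symbols. Most of the 20 reached 1000, where 4.37% of symbols were at least 1.5-fold lower and 4.26% higher. Of those 4253 symbols, 38 were at least 2-fold lower. Slc1a4, a carrier of serine, alanine and cysteine, stood at 743 in PB and 338 in PB-Gbx2, 2.20-fold lower. Aldh18a1, which starts proline synthesis from glutamate, stood at 2098 and 991, 2.12-fold lower. Chac1, which degrades glutathione, stood at 114 and 34, and the cystine carrier gene Slc7a11 at 87 and 2. Ratios scatter widely at such levels, with a 10th percentile of -1.03 in the bin of Chac1 and -1.17 in that of Slc7a11. Chac1 lay at percentile 2.28 and Slc7a11 at 0.07. The 4 higher genes, named after their values were seen, were the glutamine carrier gene Slc38a2 (3321 and 5549, 1.67-fold higher), the stress-induced Sesn2 (1942 and 2632, 1.36-fold higher), the asparagine synthetase gene Asns (8508 and 8908) and the glycine carrier gene Slc6a9 (90 and 92).

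Atf4 itself stood at 5692 in PB and 5218 in PB-Gbx2, 1.09-fold lower and at percentile 30.3 of its bin. ATF4 is controlled mostly at translation, which these libraries do not measure. Of the 15 regulators listed, 14 had a row, with 9 lower, 5 higher and a median of -0.26, where 48.9% of all symbols were lower. Ddit3, the transcription factor CHOP that acts with ATF4, stood at 552 and 240, 2.30-fold lower. Nupr1, a stress-induced cofactor, stood at 364 and 193, 1.89-fold lower. Eif2ak4, the kinase GCN2, which binds uncharged tRNA and phosphorylates eIF2alpha, stood at 856 and 585, 1.46-fold lower. Atf3 stood at 30 and 16, levels at which ratios scatter widely. The 5 higher genes were Ppp1r15a, Eif2ak1, Eif2ak3, Ppp1r15b and Eif2s1, named after their values were seen. Ppp1r15a stood at 1120 in PB and 1512 in PB-Gbx2, 1.35-fold higher and at percentile 93.3 of its bin. Levels of the others were 884 and 999, 704 and 761, 2068 and 2172, and 4710 and 4780, in that order.

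Other parts of the translation apparatus had medians near 0, and their counts stand beside 12.2% of all symbols at least 1.5-fold lower and 11.6% at least 1.5-fold higher. Among symbols that reached 1000, to which most of the cytosolic initiation and elongation factors belong, these shares were only 4.37% and 4.26%. Cytosolic initiation factors (34 genes) had a median log2 ratio of 0.00, with 0 at least 1.5-fold lower and 1 higher. That gene was Eif2s2, the beta subunit of eIF2, at 19898 in PB and 45185 in PB-Gbx2, in the coarse range from 15000 up. The 9 elongation and termination factors had a median of 0.00 and a range from -0.18 for Eef1d to 0.22 for Eef1g. The levels of Eef1g and the equal levels of Eef1a1, Eef2 and Eif5a lie in the same coarse range. So do the equal levels of Eif4a1, Eif4b and Eif4g2 among the initiation factors. A ratio of 0 is imprecise there, and the part of the coarse values in the narrow spread was not tested. The 11 mitochondrial translation factors had a median of 0.01, with Mtif3, an initiation factor, at 210 and 326, 1.55-fold higher. tRNA modification and export genes (37 with a row) had a median of 0.03, with 0 at least 1.5-fold lower and 3 higher. The 3 were Mettl1 (441 in PB and 722 in PB-Gbx2), the tRNA guanine methyltransferase, Trmt61a (266 and 428), the catalytic subunit of a tRNA adenine methyltransferase, and Adat2 (114 and 176), a tRNA adenosine deaminase. The 29 genes of tRNA transcription and processing had a median of 0.07 and 0 past 1.5-fold, with a range from -0.42 for Tsen15 to 0.43 for Brf2. The 6 editing and proofreading genes had a median of 0.03 and 0 past 1.5-fold.

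**Figure D4:**
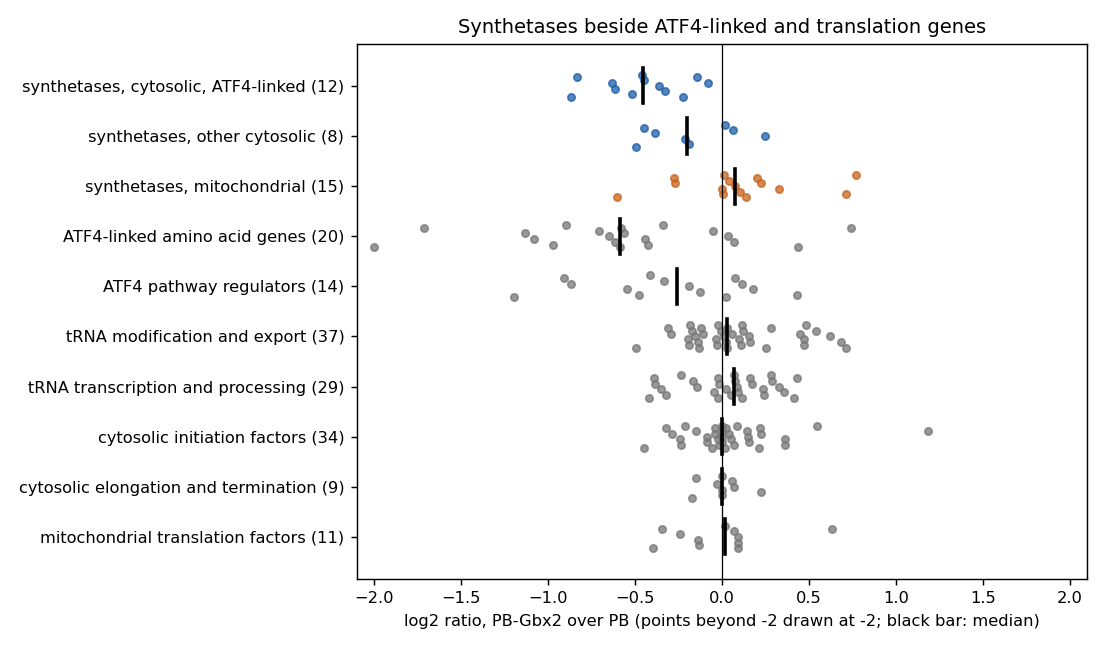
Log2 ratio of PB-Gbx2 over PB (horizontal axis) of each gene in 3 synthetase groups (blue cytosolic, orange mitochondrial) and 7 lists of related genes (grey), with a black bar at each median and the number of genes in parentheses. Points too far out for the axis are drawn near its end. Medians lie at -0.46 and -0.20 for the cytosolic groups, -0.59 for ATF4-linked amino acid genes and -0.26 for ATF4 pathway regulators. They lie between 0.00 and 0.07 for mitochondrial synthetases and the translation and tRNA lists.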

How the data were processed

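RNA-seq was read from 1 library per vector. Reads were handled with STAR and build mm9, per the submitters' processing notes; versions, annotation and counting tool: not given in the sources used here. Deposited levels are whole numbers that the authors normalized and rounded, treated as a score and not as counts, because the sorted values of both libraries agree in all 14501 rows. The authors' deposited ratio and log2 ratio run PB over PB-Gbx2, and their p-values rest on 1 library per vector. Only the p-values are quoted.

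From the levels, log2(level + 1) of PB-Gbx2 minus PB was computed for 14500 symbols, after summing the 2 rows that share a symbol. This understates the change of low genes. With 1 library per vector nothing was tested. Counts at 2-fold and 1.5-fold and medians are set beside those of all symbols, and percentiles come from 20 bins of mean level. Ratios between 5000 and 13000 are graded in steps of at most 1.05-fold. Members and lists were chosen with earlier results of these data known. Named genes are all members, Gbx2, Atf4, every gene of 3 small lists and up to 4 of each other list with the largest absolute ratio. Some further genes, of opposite direction or equal level, were named after their values were seen. A gene that the rule covers and a promoter site are not reported here. Rab3gap2 was named for its overlap. The promoter search of 8 motifs, with the 1 shown in detail, was chosen after the values and the matches were seen. Alternatives were another pseudocount, a minimum level, rescaling, other group borders and a mean. The table gives no coordinates, so mm9 positions are not printed. Python 3.11.15, numpy 2.4.6 and pandas 2.3.3 were used.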

Additional observations from a re-analysis of the deposited data

How the results depend on the processing

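The 5 medians (cytosolic, mitochondrial, their difference, ATF4-linked and other cytosolic) kept their direction in all 30 recomputations and moved by less than 1.5-fold in each. They covered pseudocounts of 0.1 and 5, a minimum level of 100, rescaling by library medians, leaving out Gars and Kars, Vars counted as ATF4-linked, a mean in place of the median of the difference and, chosen after seeing the data, subtracting the median of the level bin. The cytosolic median stayed at -0.38, the mitochondrial one ran from 0.05 to 0.07 and their difference from -0.45 to -0.43. The limit of 1.5-fold is wider than the size of each of the 5 medians, so staying within it says little. Rescaling says nothing about stability, since the deposited values share one distribution. The minimum level could not alter the cytosolic medians, since the lowest cytosolic level was 1363, and the pseudocounts hardly alter levels of that size. The threshold set the counts: with 1.5-fold in place of 2-fold, the number of lower cytosolic genes went from 0 to 4, that of lower mitochondrial genes from 0 to 1 and that of higher mitochondrial genes from 0 to 2. No paired analysis was possible because there is a lone sample for each vector, which also means that none could be omitted. Read depth is unknown, so no counting interval could be given.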
